A study of Mus musculus with 6 samples.

Results

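Ligand and receptor genes of the platelet-derived growth factor (PDGF) and vascular endothelial growth factor (VEGF) families were compared between sorted muscle and sorted epithelium of the embryonic mouse trachea. The set was defined by symbol and held 10 of the 23478 genes of the count table: the PDGF ligands Pdgfa, Pdgfb, Pdgfc and Pdgfd, the PDGF receptors Pdgfra and Pdgfrb, the VEGF ligands Vegfa, Vegfb and Vegfc, and the VEGF receptor Kdr. All 10 passed the filter on low counts. Tracheas were taken at embryonic day 13.5 from embryos with floxed Bmp4 alleles and a gamma SMA eGFP reporter (genotype Bmp4 f/f; gamma SMA eGFP). Both populations share this genotype, which the labels call a control and for which they name no Cre. Muscle cells were collected by GFP, which marks whichever cells drive the gamma smooth muscle actin reporter, and epithelial cells by an antibody to Epcam, with 3 libraries per population. Nothing in the labels says whether the libraries came from separate or pooled embryos, so p-values measure the spread between these libraries, which may be partly technical.

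PDGF ligands are secreted dimers. PDGF-A and PDGF-C bind mainly the receptor alpha chain, while PDGF-B and PDGF-D bind mainly the beta chain, and the receptors are tyrosine kinases typical of mesenchymal cells. In many developing organs PDGF-A is made by epithelium and read by the mesenchyme beneath it, while PDGF-B from endothelium recruits pericytes and vascular smooth muscle. VEGF-A, often made by epithelium, acts on endothelial cells through Kdr (VEGFR2). VEGF-B and placental growth factor bind the related receptor Flt1, and VEGF-C and VEGF-D act mainly on lymphatic endothelium through Flt4. The series concerns Wnt signalling, ion channels and tracheal muscle and cartilage formation, and the comparison here asks in which of these sorted populations each of these genes was read.

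Levels are given as CPM, counts brought to a common library size with scaling by the trimmed mean of M-values. Both PDGF receptor genes were far higher in muscle, while the leading ligands were read in both populations. Pdgfrb was 31.9-fold and Pdgfra 7.89-fold higher in muscle. Vegfa (2.10-fold) and Pdgfb (3.40-fold) had higher estimates in epithelium, and Pdgfc (2.50-fold) and Vegfc (2.31-fold) had higher estimates in muscle, but none of these 4 passed the test. Of the 10 genes, 2 passed an adjusted p of 0.05 in edgeR's quasi-likelihood test, both toward muscle, where 6.58% of all 19375 tested genes passed toward muscle and 10.7% in either direction. No member passed toward epithelium, where 4.11% of all genes did. 7 of the 10 had an unadjusted p under 0.05, against 21.7% of all tested genes. The median log2 fold change of the 10 genes (muscle over epithelium) was 0.74, beside -0.10 over all tested genes. The groups did not overlap for 4 members higher in muscle (Pdgfra, Pdgfrb, Vegfb and Vegfc) and for 1 higher in epithelium (Pdgfb). Of all tested genes, 16.4% and 10.5% did not overlap in these directions, 26.9% in all.

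**Figure D1:**
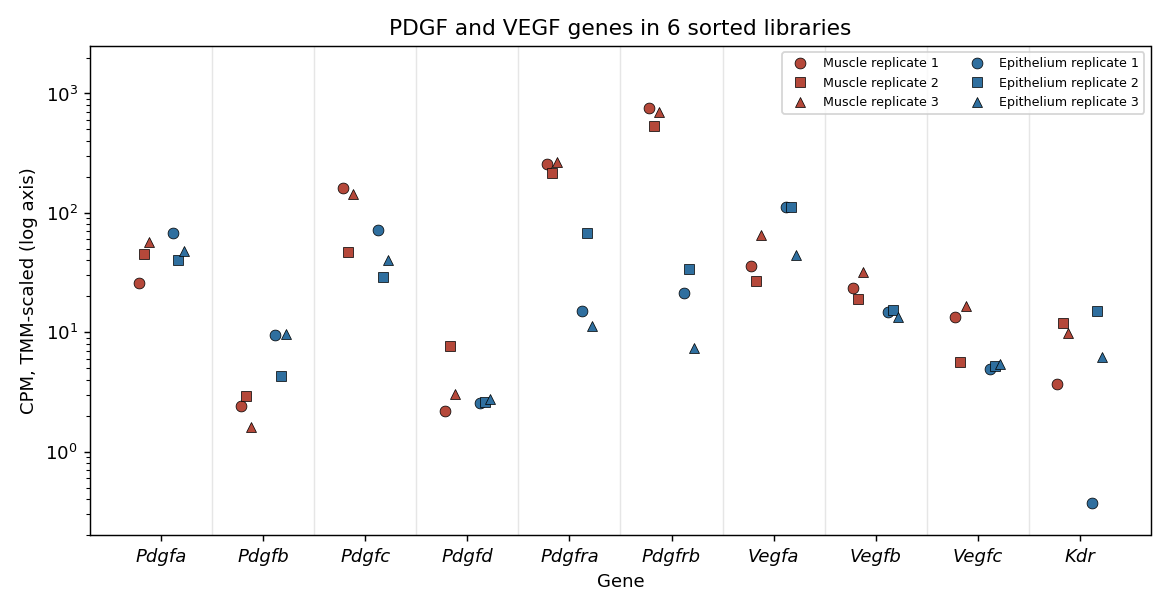
Levels of the 10 genes in each of the 6 libraries, as CPM on a log axis; red marks muscle, blue marks epithelium, and the symbol gives the replicate. Pdgfrb in muscle lies between 536 and 755 CPM and in epithelium between 7.40 and 33.8 CPM, while Kdr spans 0.37 to 15.0 CPM within epithelium.

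Total counts ran from 11847432 to 54848820 per library, so that 1 count equals between 0.0182 and 0.0844 CPM before scaling, and no member had fewer than 20 counts in any library. Sorting markers separated the populations: all 10 smooth muscle markers were higher in muscle and all 12 epithelial markers were higher in epithelium. Epithelium replicate 2 stood apart, with the median of 13 fibroblast and mesenchyme markers at 24.2% of the muscle mean, against 4.47% and 4.39% in replicates 1 and 3. The median of its smooth muscle markers was 1.99% of the muscle mean, against 0.93% and 0.72%. Muscle replicate 2 had less of the smooth muscle markers, which summed to 4137 CPM against 16896 and 17829 in the other muscle libraries. Muscle replicate 2 and epithelium replicates 2 and 3 also held more counts in 1456 olfactory and vomeronasal receptor genes, a measure of background, with a mean of 0.44 to 1.25 CPM per gene against at most 0.026 in the other 3 libraries. Identifiers in the header of the table carry dates, an earlier day for both libraries numbered 2 and a later day for the other 4, and what they date is not stated. The earlier day has 1 library per population and allows no test of its own. In sorted bulk samples, fewer cells of a type and less RNA per cell cannot be told apart.

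The start-site regions are printed for Pdgfra, a receptor gene that differed, and for Pdgfa and Vegfa, the leading ligand genes of the epithelium. They are the 250 bases before the RefSeq start site in GRCm38.p6, read 5′ to 3′ on the gene's strand, with the GC box letters GGGCGG, on either strand, in capitals. RefSeq windows were taken for 8 of the 10 genes, all but Pdgfb and Pdgfrb. Windows on the chromosome of Pdgfrb were left out of the search, so its lack of a window is no failed match. Pdgfa and Vegfa have 2 start sites each in the table, and the more upstream one is printed. Counts per gene do not show which start sites the transcripts used.
Pdgfra (chr5:75152001-75152250, plus strand): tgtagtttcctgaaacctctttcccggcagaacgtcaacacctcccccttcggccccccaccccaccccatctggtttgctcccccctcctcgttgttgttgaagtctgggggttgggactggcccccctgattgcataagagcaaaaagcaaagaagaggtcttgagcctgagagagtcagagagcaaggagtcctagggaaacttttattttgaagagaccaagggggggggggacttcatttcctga
Pdgfa (chr5:138994945-138995194, minus strand): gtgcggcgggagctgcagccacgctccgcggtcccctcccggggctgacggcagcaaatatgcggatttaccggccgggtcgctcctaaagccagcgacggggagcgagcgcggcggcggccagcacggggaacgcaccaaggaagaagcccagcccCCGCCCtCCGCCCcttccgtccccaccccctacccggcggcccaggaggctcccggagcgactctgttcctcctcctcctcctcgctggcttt
Vegfa (chr17:46032378-46032627, minus strand): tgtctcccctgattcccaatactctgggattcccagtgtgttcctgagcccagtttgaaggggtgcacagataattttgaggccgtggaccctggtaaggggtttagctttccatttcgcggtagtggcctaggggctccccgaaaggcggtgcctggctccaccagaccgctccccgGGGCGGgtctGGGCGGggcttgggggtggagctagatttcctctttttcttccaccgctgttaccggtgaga
The Pdgfra window held no GC box, and 54.4% of its bases were G or C. The printed Pdgfa window held 2 adjacent GC boxes with 72.4% G or C, and the window of its other start site (chr5:138994282-138994531) 1 GC box with 66.4%. In the printed Vegfa window there were 2 GC boxes and 59.2% G or C, and in the window of its other start site (chr17:46025164-46025413) 1 GC box and 59.6% G or C. Of 32851 RefSeq windows of this length, 32.7% held a GC box on either strand. The core letters of a hypoxia response element (ACGTG or GCGTG, either strand) stood at 1 place in the printed Pdgfa window, at none in the printed Pdgfra and Vegfa windows and at 2 places in the other Vegfa window, with none in the other Pdgfa window. The other Vegfa window and both Pdgfa windows lie inside the annotated spans of their genes. Letters there can thus belong to transcribed sequence. Of all windows, 38.6% held them. The letters TATAAA, on either strand, were in none of the 3 printed windows and in 12.4% of all windows. These matches describe the letters in the windows and were not related to the counts.

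Pdgfrb, the receptor beta chain of vascular mural cells and mesenchyme, lies on the plus strand of chromosome 18 and showed the clearest separation of the set. It had 755, 536 and 696 CPM in the muscle libraries, replicates 1 to 3, and 21.3, 33.8 and 7.40 CPM in the epithelial libraries in the same order. Every muscle library was thus more than an order of magnitude above every epithelial library. For Pdgfrb, muscle over epithelium gave a log2 ratio of 4.996 ± 0.55 (SE, adjusted p = 0.00085, edgeR). Pdgfrb passed the threshold in all 16 alternative fits, with log2 fold changes between 4.47 and 5.57. Its epithelial reads amounted to 3.22%, 5.10% and 1.12% of the muscle mean in epithelium replicates 1 to 3. In each library this share was above the median of the smooth muscle markers. It was below that of the fibroblast and mesenchyme markers (4.47%, 24.2% and 4.39%) and of the pericyte markers (3.40%, 30.8% and 15.3%). The part of mesenchymal RNA in the epithelial Pdgfrb level was not tested.

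Pdgfra, the receptor alpha chain and a common marker of fibroblasts and their progenitors, lies on the plus strand of chromosome 5 (75152292 to 75198215, GRCm38). It had 257, 216 and 265 CPM in muscle replicates 1 to 3. In epithelium replicates 1 to 3 it had 15.1, 67.6 and 11.4 CPM. The muscle libraries were close to each other, while epithelium replicate 2 held several times the Pdgfra of the other epithelial libraries. The log2 ratio of Pdgfra, muscle over epithelium, was 2.98 ± 0.63 (SE, adjusted p = 0.018, edgeR). In epithelium replicate 2 the Pdgfra level was 27.5% of the muscle mean, against 6.13% and 4.62% in replicates 1 and 3, which lies beside the 24.2%, 4.47% and 4.39% of the fibroblast and mesenchyme list. The part of mesenchymal RNA in the epithelial Pdgfra level was not tested. Without epithelium replicate 2 the log2 fold change was 4.15 ± 0.30 (adjusted p = 0.00013), a larger difference, and within the later header day it was 4.22 ± 0.21 (adjusted p = 0.00030). The call was lost without muscle replicate 1 (adjusted p = 0.060) or muscle replicate 3 (0.057), with scaling by library size only (0.062) and with a covariate for background counts (0.072). In GENCODE M21, 652 exon bases of Pdgfra are shared with other genes, and the library type is not known to keep strand, so reads there cannot be assigned with certainty.

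The share of Pdgfrb among both PDGF receptors was larger in each muscle library than in any epithelial one. Levels of different genes are compared here as CPM per kilobase of exon, using the summed exon length of each gene in GENCODE M21. In muscle Pdgfrb had 121 ± 20.7 CPM per kilobase (SD, n = 3) and Pdgfra 24.6 ± 2.61. In epithelium the values were 3.80 ± 2.41 and 3.13 ± 3.14. Of the sum of both receptors per kilobase, Pdgfrb made up 84.3%, 81.9% and 82.8% in the muscle libraries, replicates 1 to 3, and 72.1%, 47.7% and 54.3% in the epithelial ones. The share varied little among the muscle libraries and more among the epithelial ones. Such shares do not depend on the scaling between libraries. An exact permutation test of 3 against 3 libraries cannot give a p under 0.1, so the shares are given without a test.

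Pdgfa, the ligand of the alpha chain that branching epithelia are known for, lies on the minus strand of chromosome 5 (138976014 to 138997370). Its level was 25.7, 45.4 and 57.0 CPM in the muscle libraries, replicates 1 to 3, and 68.4, 40.7 and 47.5 CPM in the epithelial libraries in the same order. The groups overlapped, with muscle replicate 3 above both epithelium replicates 2 and 3. On the log2 scale the estimate for Pdgfa, muscle over epithelium, was -0.29 ± 0.33 (SE, adjusted p = 0.81, edgeR), and none of the 16 alternative fits passed the threshold. The sign was negative in all 16 of them, between -0.91 and -0.02. An antisense gene annotated on the other strand shares 813 of the 3119 exon bases of Pdgfa, and without strand the reads there cannot be told apart.

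Pdgfc, which also binds the alpha chain and needs proteolytic release of its CUB domain, lies on the plus strand of chromosome 3 (81036416 to 81214040). It had 163, 47.1 and 145 CPM in the muscle libraries, replicates 1 to 3, and 72.0, 28.9 and 40.6 CPM in the epithelial libraries in the same order. Muscle replicate 2, the muscle library with the fewest smooth muscle reads, fell among the epithelial libraries. For Pdgfc, muscle over epithelium gave a log2 ratio of 1.32 ± 0.49 (SE, adjusted p = 0.14, edgeR). Without muscle replicate 2 it was 1.71 ± 0.36 (adjusted p = 0.013). The later header day, which leaves out both replicates numbered 2, gave 1.38 ± 0.29 (adjusted p = 0.028). The call was also made with the header day as a term (0.026) and with the background covariate (0.025). The muscle libraries themselves spread 3.45-fold. An antisense gene shares 147 exon bases with Pdgfc.

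Pdgfb, the beta-chain ligand through which endothelium attracts mural cells, lies on the minus strand of chromosome 15 (79995874 to 80014977). It was a low gene, with 2.39, 2.95 and 1.62 CPM in the muscle libraries, replicates 1 to 3 (59 to 64 counts), and 9.55, 4.34 and 9.73 CPM in the epithelial libraries in the same order (514, 65 and 259 counts). All epithelial libraries were above all muscle libraries. The log2 ratio of Pdgfb, muscle over epithelium, was -1.76 ± 0.69 (SE, adjusted p = 0.17, edgeR). The later header day alone gave -2.34 ± 0.50 (adjusted p = 0.030), and DESeq2 gave an adjusted p of 0.016. None of the 6 fits that left out 1 library passed (adjusted p from 0.088 to 0.55).

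Pdgfd, the other beta-chain ligand with a CUB domain, lies on the plus strand of chromosome 9 (6168584 to 6378850). It had 2.20, 7.74 and 3.06 CPM in muscle replicates 1 to 3 and between 2.58 and 2.78 CPM in epithelium. Muscle replicate 2 stood well above the epithelial range, muscle replicate 3 just above it and muscle replicate 1 below it. On the log2 scale the estimate for Pdgfd, muscle over epithelium, was 0.70 ± 0.90 (SE, adjusted p = 0.84, edgeR), and without muscle replicate 2 it was -0.0028, so that the direction rests on that library. Muscle replicate 2 also led the muscle libraries in background counts, at 0.61 CPM per receptor gene.

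Per kilobase of exon Pdgfa was the leading PDGF ligand in all epithelial libraries and in muscle replicate 2, and Pdgfc in muscle replicates 1 and 3. In epithelium Pdgfa made up 56.0%, 63.4% and 57.7% of the sum of the 4 ligands in replicates 1 to 3. In muscle it made up 19.8%, 53.9% and 38.0%. Pdgfa thus took a larger share in each epithelial library than in any muscle library, although its own level did not pass the test. Pdgfc made up 77.1%, 34.3% and 59.2% in muscle and 36.1%, 27.5% and 30.2% in epithelium, and muscle replicate 2 lay within the epithelial range. Pdgfb made up 0.81% to 2.62% in muscle and 5.07% to 8.84% in epithelium. Pdgfd made up at most 4.01% in epithelium and 9.10% in muscle.

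**Figure D2:**
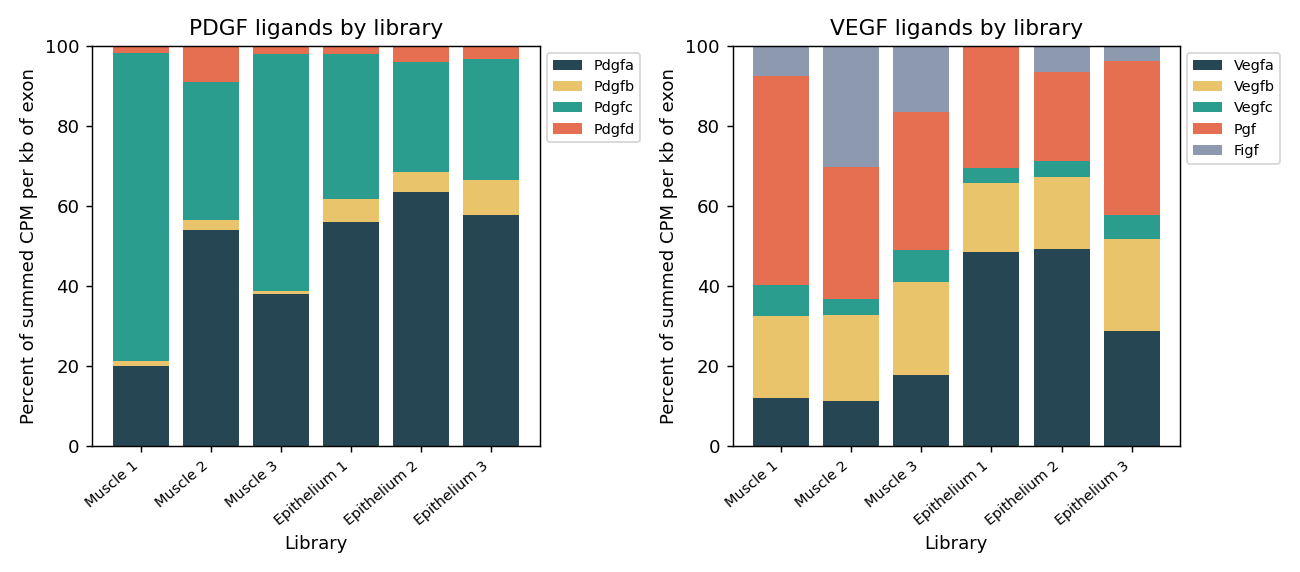
Share of each ligand in the summed CPM per kilobase of exon of its family, for each library; Figf is the older symbol of Vegfd. Pdgfa makes up 56.0% to 63.4% of the PDGF ligands and Vegfa 28.7% to 49.3% of the VEGF ligands in epithelium, against 19.8% to 53.9% and 11.3% to 17.7% in muscle.

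Vegfa, the principal signal for blood vessel growth and a target of hypoxia-inducible factors, lies on the minus strand of chromosome 17 (46016993 to 46032369). It had 36.0, 27.0 and 65.2 CPM in the muscle libraries, replicates 1 to 3, and 113, 112 and 44.5 CPM in the epithelial libraries in the same order. Epithelium replicates 1 and 2 were above every muscle library, while epithelium replicate 3 lay below muscle replicate 3. For Vegfa, muscle over epithelium gave a log2 ratio of -1.07 ± 0.43 (SE, adjusted p = 0.18, edgeR). Without epithelium replicate 3 it was -1.53 ± 0.37 (adjusted p = 0.048), and DESeq2 gave an adjusted p of 0.037 with all libraries. The sign was negative in all 16 alternative fits. The table counts genes, so the splice forms of VEGF-A, which differ in matrix binding, were not separated.

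Vegfb, a ligand of Flt1, lies on the minus strand of chromosome 19 (6982473 to 6987651). It had 23.6, 19.1 and 32.2 CPM in the muscle libraries, replicates 1 to 3, and 14.9, 15.3 and 13.3 CPM in the epithelial libraries in the same order. The epithelial libraries were close to each other, and every muscle library was above them. The log2 fold change of 0.78 ± 0.28 (SE) did not pass the threshold (adjusted p = 0.12, edgeR), and the adjusted p stayed between 0.064 and 0.54 in the 16 alternatives.

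Vegfc, the lymphatic growth factor, lies on the plus strand of chromosome 8 (54077606 to 54187096). It had 13.5, 5.59 and 16.7 CPM in the muscle libraries, replicates 1 to 3, and 4.91, 5.21 and 5.41 CPM in the epithelial libraries in the same order. As for Pdgfc, muscle replicate 2 lay beside the epithelial libraries while the other muscle libraries were higher. The log2 ratio of Vegfc, muscle over epithelium, was 1.21 ± 0.51 (SE, adjusted p = 0.20, edgeR). Without muscle replicate 2 it was 1.56 ± 0.42 (adjusted p = 0.039), and within the later header day it was 1.48 ± 0.36 (adjusted p = 0.043).

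Placental growth factor (Pgf), which binds Flt1, and Vegfd, which the table lists under its older symbol Figf, complete the VEGF ligands. Pgf had 108, 53.0 and 86.7 CPM in the muscle libraries, replicates 1 to 3, and 48.0, 34.4 and 40.6 CPM in the epithelial libraries in the same order. The groups did not overlap, but the log2 fold change of 1.01 ± 0.30 (SE) did not pass (adjusted p = 0.068, edgeR). It passed in 7 of 16 alternative fits, among them the one without muscle replicate 2 (adjusted p = 0.010). Figf had 12.7 to 40.7 CPM in muscle and 0.093 to 8.35 CPM in epithelium. Its log2 ratio of 2.94 ± 1.11 did not pass (adjusted p = 0.15, edgeR). It did pass with limma's voom on all libraries (0.018) and without epithelium replicate 1 (0.032), the library with 5 counts. Over the 16 alternative fits the ratio ran from 2.36 to 7.75, the largest with epithelium replicate 1 as the only epithelial library.

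Of the summed CPM per kilobase of these 5 VEGF ligands, Vegfa made up 11.8%, 11.3% and 17.7% in muscle replicates 1 to 3. It made up 48.6%, 49.3% and 28.7% in epithelium replicates 1 to 3. The shares did not overlap although the levels did, and Vegfa was the ligand with the largest share in epithelium replicates 1 and 2. Pgf had the largest share in each muscle library, at 52.2%, 32.8% and 34.7%, and in epithelium replicate 3, at 38.6%. Vegfb held 20.7% to 23.3% in muscle and 17.1% to 22.9% in epithelium, so its share overlapped.

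**Figure D3:**
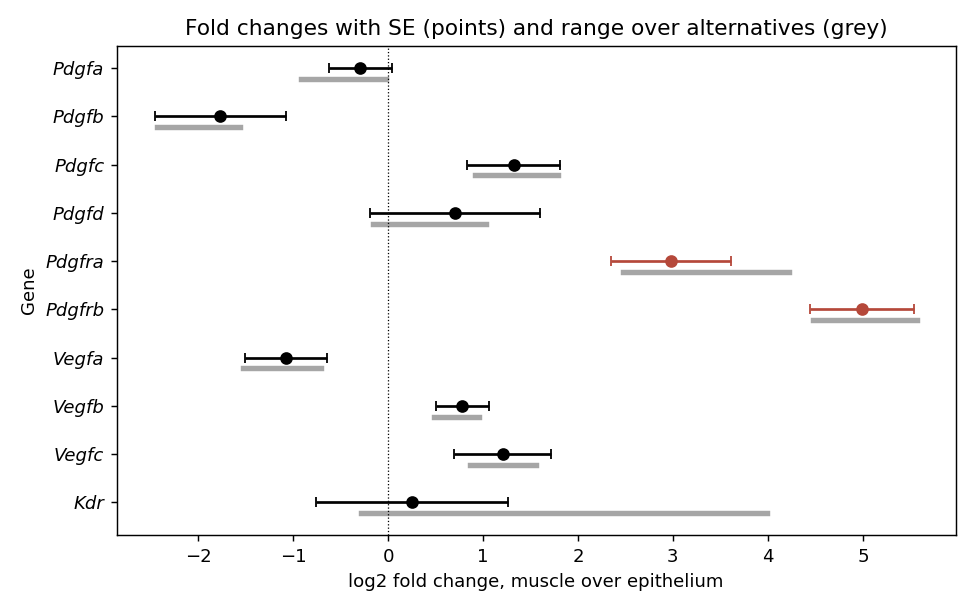
Log2 fold change of muscle over epithelium for each gene with its standard error (points and whiskers, red where the adjusted p is under 0.05) and, in grey, the range over 16 alternative fits. Pdgfrb (4.996) and Pdgfra (2.98) are the genes in red, and the grey range of Kdr reaches from -0.29 to 3.996.

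Kdr, the main signalling receptor for VEGF-A on endothelial cells, lies on the minus strand of chromosome 5 (75932827 to 75978458). It had 3.69, 12.1 and 9.88 CPM in the muscle libraries, replicates 1 to 3 (97, 242 and 391 counts), and 0.37, 15.0 and 6.20 CPM in the epithelial libraries in the same order (20, 225 and 165 counts). The muscle range lay within the epithelial range, and the epithelial libraries spread 40.5-fold. On the log2 scale the estimate for Kdr, muscle over epithelium, was 0.25 ± 1.01 (SE, adjusted p = 0.96, edgeR). The sign turned without muscle replicate 2 (-0.062), without epithelium replicate 1 (-0.29) and with scaling by library size only (-0.065). Without the 3 libraries with the most background counts, an alternative chosen after seeing the data, it was 3.996 ± 0.99 (adjusted p = 0.039). That fit sets muscle replicates 1 and 3 against epithelium replicate 1 alone, the library with 20 Kdr counts, and assumes that the lone library varies like the others.

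Endothelial markers varied between the same libraries. Pecam1, an adhesion molecule of endothelium and blood cells, had 0.84, 5.79 and 6.42 CPM in the muscle libraries, replicates 1 to 3, and 0.074, 6.48 and 4.73 CPM in the epithelial libraries in the same order. Pecam1 and Kdr were both lowest in epithelium replicate 1 and next lowest in muscle replicate 1, and both peaked in epithelium replicate 2. Cdh5, Emcn and Sox17 had the same lowest, next lowest and highest libraries, at no more than 4.54 CPM. Others of the list did not. Prox1 was highest of all libraries in epithelium replicate 1, at 11.7 CPM, and Egfl7 had 12.2 CPM there, the most among the epithelial libraries. Of the 15 endothelial markers, muscle replicate 1 had 2 at 0 counts (Tie1 and Cldn5), epithelium replicate 1 had 4 (Cdh5, Tie1, Emcn and Sox17), and epithelium replicate 2 had 1 (Sox18). The list summed to 118 to 157 CPM in muscle and 27.8 to 94.5 CPM in epithelium, and 1 of its 15 genes passed toward muscle and none toward epithelium. Its members Pecam1, Cdh5, Tie1, Cldn5 and Emcn, picked as examples, summed to 0.95, 13.9 and 22.4 CPM in muscle replicates 1 to 3. In epithelium replicates 1 to 3 they summed to 0.15, 25.5 and 9.35 CPM. These sums overlapped, while those of the whole list did not. Of the members left out of these sums, Tek, Esam, Eng, Erg and Sox18 were higher in every muscle library than in any epithelial one. The remaining members overlapped. The 3 libraries with the most background counts include both libraries numbered 2, which had the highest Kdr of their population. The parts of endothelial RNA and of background in the Kdr level were not tested.

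Flt1, the receptor for VEGF-A, VEGF-B and placental growth factor, passed the test where Kdr did not, and the difference between both genes was not tested. It had 63.0, 63.6 and 58.7 CPM in the muscle libraries, replicates 1 to 3, and 2.58, 21.1 and 9.95 CPM in the epithelial libraries in the same order. The muscle libraries were nearly equal, while the endothelial markers in muscle replicate 1 ran from no counts (Tie1 and Cldn5) to 34.6 CPM (Tek). The part of endothelial RNA in the Flt1 level was not tested. For Flt1, muscle over epithelium gave a log2 ratio of 2.48 ± 0.61 (SE, adjusted p = 0.032, edgeR). Flt1 passed in 9 of 16 alternative fits, and it lost the call without any 1 of the muscle libraries or without epithelium replicate 3, at an adjusted p of up to 0.16. The Flt1 call was also lost with relative log expression scaling in edgeR (0.065), library size only (0.11) and the replicate block (0.056). Among the 3 VEGF receptor genes per kilobase, Flt1 made up 90.8%, 70.7% and 77.9% in muscle and 51.1%, 38.5% and 38.7% in epithelium. Among the endothelial markers, Tek, the angiopoietin receptor, had 34.6 CPM in muscle replicate 1, the adhesion gene Esam 28.9 CPM and Eng 25.1 CPM. Esam passed toward muscle (log2 fold change 2.80, adjusted p = 0.036) but lost the call without muscle replicate 1, muscle replicate 3 or epithelium replicate 3 (up to 0.15), with relative log expression scaling (0.071), library size only (0.11) or the replicate block (0.066). Tek (2.20, adjusted p = 0.15) and Eng (2.58, 0.095) did not pass.

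Of the other receptors and co-receptors, Nrp1, a co-receptor of VEGF-A and of class 3 semaphorins, showed the largest difference. It had 484, 444 and 540 CPM in the muscle libraries, replicates 1 to 3, and 13.8, 51.5 and 14.6 CPM in the epithelial libraries in the same order. The log2 ratio of Nrp1, muscle over epithelium, was 4.21 ± 0.55 (SE, adjusted p = 0.0017, edgeR), and it passed in all 16 alternative fits. As for Pdgfra, epithelium replicate 2 held the most among the epithelial libraries. Pdgfrl, a PDGF receptor-like gene without a kinase, was higher in muscle (1.502 ± 0.30, adjusted p = 0.012), and its call was lost without epithelium replicate 3 (0.063), with scaling by library size only (0.077) and without the 3 libraries with the most background counts (0.077). Nrp2 had 93 to 427 CPM in muscle and 112 to 232 CPM in epithelium. Its log2 ratio was 0.74 ± 0.51 (adjusted p = 0.53), which passed only without muscle replicate 2 (0.049) among the 16 alternatives. Flt4, the lymphatic VEGF receptor, had 0.53 to 5.04 CPM in muscle and 1.17 to 6.88 CPM in epithelium (-0.84 ± 1.19, adjusted p = 0.87). Of these 7 further ligands, receptors and co-receptors, 3 passed toward muscle and none toward epithelium.

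**Figure D4:**
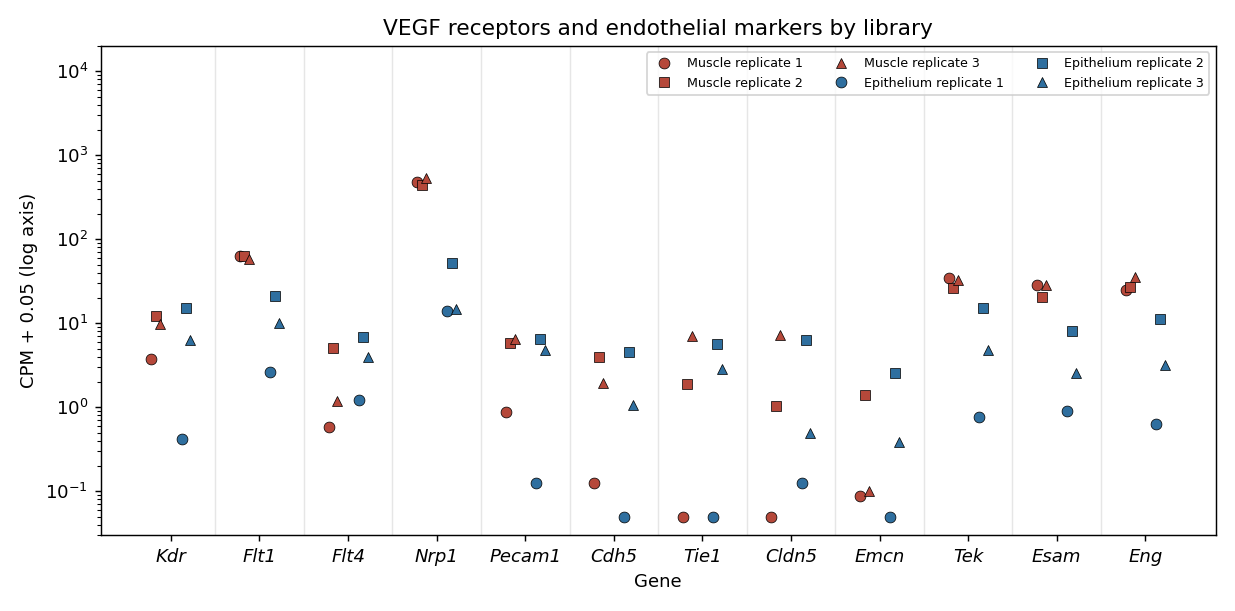
Levels of VEGF receptors, the co-receptor Nrp1 and endothelial markers by library, as CPM plus 0.05 on a log axis; colours mark the population and symbols the replicate. Flt1 sits between 58.7 and 63.6 CPM in all muscle libraries, while Kdr and Pecam1 are lowest in epithelium replicate 1 and next lowest in muscle replicate 1.

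By mean CPM per kilobase of exon, the 10 genes ran in muscle from Pdgfrb (121) through Pdgfra (24.6), Pdgfc (23.2), Vegfb (15.6), Pdgfa (13.7), Vegfa (9.97), Vegfc (4.88), Pdgfd (1.37) and Kdr (0.95) to Pdgfb (0.56). Only Pdgfrb was separated from its neighbour in that order in all muscle libraries. Each other pair of neighbours overlapped in its range over libraries. In epithelium the order ran from Vegfa (20.97) and Pdgfa (16.7) through Pdgfc (9.26), Vegfb (9.04), Pdgfrb (3.80), Pdgfra (3.13), Vegfc (2.11), Pdgfb (1.89) and Pdgfd (0.84) to Kdr (0.80). There the ranges of neighbours were apart between Vegfb and Pdgfrb and between Pdgfb and Pdgfd. The first 4 genes by mean in epithelium were ligand genes. In muscle Pdgfra was second by mean, but Pdgfc was above it in replicates 1 (32.0 against 25.6) and 3 (28.5 against 26.4).

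Genes for the processing or release of these ligands were described as a list of 9 genes, of which 2 passed toward muscle and 1 toward epithelium. Plat, tissue plasminogen activator, which cleaves PDGF-C, was higher in muscle (2.28 ± 0.26, adjusted p = 0.0010, edgeR). Adamts3, which cleaves VEGF-C, was also higher in muscle (1.28 ± 0.26, adjusted p = 0.014), but lost the call without muscle replicate 3, epithelium replicate 1 or epithelium replicate 3 (up to 0.089), with library size only (0.070) and without the 3 libraries with the most background counts (0.078). St14, the membrane protease matriptase, was higher in epithelium (-6.28 ± 0.83, adjusted p = 0.0020), with 251 ± 61.9 CPM there and 3.31 ± 3.73 CPM in muscle (SD, n = 3). Furin, which cleaves several of the ligand precursors, did not pass (0.74 ± 0.35, adjusted p = 0.27). The list's median log2 fold change was 0.74.

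Of 9 genes of the hypoxia-inducible factor pathway, which raises Vegfa transcription when oxygen is low, 1 passed toward muscle and none toward epithelium. Egln3, a prolyl hydroxylase and itself a target of the pathway, had 91.6 ± 54.4 CPM in muscle and 17.5 ± 6.96 CPM in epithelium (SD, n = 3). Its log2 ratio was 2.39 ± 0.53 (SE, adjusted p = 0.021, edgeR). Its call was lost without replicate 1 or 3 of muscle or replicate 2 or 3 of epithelium (up to 0.10). The log2 ratio of Hif1a was 0.46 ± 0.30 (adjusted p = 0.51) and that of Vhl was 0.63 ± 0.28 (adjusted p = 0.23). The median of the list was 0.46.

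Downstream of the receptors, 24 of 26 adaptor and effector genes did not pass the threshold, 1 passed in each direction, and the median log2 fold change was 0.21. Shc1, an adaptor of receptor tyrosine kinases, was higher in muscle (1.45 ± 0.30, adjusted p = 0.016, edgeR), and its call was lost without muscle replicate 1, muscle replicate 3 or epithelium replicate 3 (up to 0.080). Pik3cb, a catalytic subunit of phosphoinositide 3-kinase, was higher in epithelium (-2.06 ± 0.53, adjusted p = 0.039), and its call was lost without replicate 1 or 3 of muscle or replicate 2 or 3 of epithelium (up to 0.12), with relative log expression scaling (0.059) and with library size only (0.072). Of 13 feedback genes of receptor tyrosine kinases, which many growth factors besides PDGF and VEGF induce, 1 passed toward epithelium and none toward muscle. That gene was Spry1, a feedback inhibitor, whose log2 ratio was -1.73 ± 0.28 (adjusted p = 0.0048). The median of that list was -0.47.

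Markers of pericytes and fibroblasts, cells that carry PDGF receptors in many organs, were also read in the muscle libraries. Of 7 tested pericyte markers, 2 passed toward muscle and none toward epithelium. Rgs5 (4.60 ± 0.59, adjusted p = 0.0016, edgeR) and Cspg4, the NG2 proteoglycan (3.87 ± 0.60, adjusted p = 0.0039), were those genes. The pericyte list summed to 460 to 709 CPM in muscle and 132 to 218 CPM in epithelium. Most of the epithelial sum was Notch3, with 105 to 194 CPM there and 145 to 237 CPM in muscle. Notch3 did not pass (0.27 ± 0.31, adjusted p = 0.82, edgeR). Of 13 fibroblast and mesenchyme markers, 8 passed toward muscle, and the list summed to 8861 to 11897 CPM in muscle and 445 to 2385 CPM in epithelium. The part of such cells in the muscle levels of Pdgfra and Pdgfrb was not tested.

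For 1 ligand and 1 receptor of each family, the genes with the most similar levels over the 6 libraries were found among the 9365 genes whose mean log2 CPM reached 4. Nearest to Pdgfra were Thbs2 (Pearson's r = 0.999), Cdo1 (0.998) and Col3a1 (0.998), a fibrillar collagen gene that is also a fibroblast marker. All 3 shared with Pdgfra the higher epithelial level in replicate 2, where Col3a1 had 745 CPM against 117 and 91.3 CPM in replicates 1 and 3. Nearest to Pdgfa were Uchl3 (0.970), Col18a1 (0.969) and Dhrsx (0.964). Nearest to Vegfa were Tmem260 (0.995) and Klhl21 (0.991), and nearest to Kdr were Penk (0.985), Atp13a3 (0.981) and Nrxn3 (0.975). Over 6 libraries of 2 populations such values describe a shared pattern of libraries, including their depth and background, and carry no test.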

How the data were processed

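RNA was measured in 6 libraries. Per the labels' protocols, tracheas were dissociated for 15 minutes with TrypLE, cells were sorted, RNA was extracted with Trizol, and libraries were made with SMART-Seq v4 and Nextera XT. The deposited table holds raw counts per gene symbol that the authors made. The submitters' processing notes name Trim Galore, Bowtie2, Cufflinks, DESeq and the build mm10, with no roles. The counting program, annotation and strand setting are not given in the sources used here. Of counts from 1 to 19, 73.8% to 79.6% were even, so counts may not be independent reads; the cause was not tested.

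Counts were analysed in R 4.3.3 with edgeR 4.0.16: filterByExpr by group, TMM scaling, robust quasi-likelihood test, two-sided, Benjamini-Hochberg adjustment over all 19375 tested genes. CPM used TMM-scaled library sizes. SE was derived from the test statistic. The test was also run on simulated counts, drawn independently and without the header days, background or even counts of these libraries. That run does not show how the test behaves with them. Alternatives used DESeq2 1.42.0, limma 3.58.1 (voom), other scalings, no filter, added terms, a stricter threshold of 0.01 and the removal of libraries.

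The members and the 14 further lists were chosen with earlier results of these data known. All members and further family genes are named; from each other list, up to 3 genes per direction past the threshold with the largest change whose mean log2 CPM reached 2 could be named. Genes beyond that are given as examples chosen after their values were seen. Nearest genes used log2 CPM with a prior count of 2, up to 3 per member; 1 of them is not reported here. Exon lengths and positions are from GENCODE M21 (GRCm38, the build mm10), and promoter windows from RefSeq. Markers of erythroid, immune and neural cells gave 0, 0 and 1 called genes, the last being Erbb3 toward epithelium. Cartilage markers gave 4, all toward muscle.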

Additional observations from a re-analysis of the deposited data

How the results depend on the processing

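Over 16 alternative fits, 8 of the 10 genes kept their direction throughout. Pdgfd turned in 3 (later header day only -0.10, without muscle replicate 2 -0.0028, without the 3 libraries with the most background counts -0.16). Kdr turned in 3 (library size only -0.065, without muscle replicate 2 -0.062, without epithelium replicate 1 -0.29). Leaving out 1 library gave -0.0028 to 1.03 for Pdgfd and -0.29 to 1.44 for Kdr. The count of 2 members past the threshold became 1 with library size only and at an adjusted p under 0.01, 4 with DESeq2 and 5 within the later header day. The setting without the 3 libraries with the most background counts was chosen after seeing the data. It leaves a lone epithelial library, so its count of calls is not given. Leaving out 1 library gave 1 to 4 members. Over all genes, the count of 2071 of 19375 became 2480 with library size only, 3539 with DESeq2 and 2928 of 16634 within the later header day. It became 3178 with the header day as a term and 983 at an adjusted p under 0.01. Leaving out 1 library gave 1169 to 2573. The count thus moved over all genes as well as over the members. With library size only the median log2 fold change of all genes moved from -0.10 to -0.33, and the share of calls toward muscle from 61.5% to 42.0%. For 30 further named genes, 414 of 480 alternative values kept their side of the threshold, 55 lost the call, 11 gained it and none changed direction.

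The replicate numbers do not clearly pair the libraries. Over all tested genes, deviations from the group means correlated at 0.59 for the libraries numbered 1, 0.73 for those numbered 2 and -0.57 for those numbered 3. Over the 4123 genes with the highest mean levels the values were weaker, at 0.17, 0.15 and -0.17. Muscle replicate 3 correlated best with epithelium replicate 1 over all tested genes. With the replicate block 3 members passed, Pdgfc (1.24, adjusted p = 0.028) in addition to Pdgfra and Pdgfrb, and 2418 genes in all. Single counts are worth 0.0182 to 0.0844 CPM, a larger part of the level for low genes such as Pdgfb, Pdgfd, Kdr and Flt4 than for high ones. Counting error is only part of the spread of these low genes, and the part of depth was not tested.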
